A study of Homo sapiens with 14 samples.

Results

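Expression of the core genes of transforming growth factor beta (TGFb) signalling was followed in PANC-1 cells, a widely used human cell line from a pancreatic carcinoma that is reported to express SMAD4. The 9 genes are the ligands TGFB1 and TGFB2, the signalling receptors TGFBR1 and TGFBR2, the co-receptors TGFBR3 and ENG, and the signalling SMADs SMAD2, SMAD3 and SMAD4. They are 9 of the 18129 genes with a probe set that names 1 gene alone, and each is represented by its brightest probe set over the 14 arrays, with its other probe sets reported beside it. All 9 lay above the brightness limit for testing. The cells were grown with 10% fetal calf serum, starved in 1% serum for 24 h and harvested after 48 h of treatment. The control group (4 arrays) received vehicle, and the TGFb1 group (4 arrays) received TGFb1 at 5 ng/ml. The acriflavine group (3 arrays) received TGFb1 at 5 ng/ml together with acriflavine at 2.5 µM, and the valproate group (3 arrays) received TGFb1 at 5 ng/ml together with sodium valproate at 2 mM. Both inhibitor groups thus contain TGFb1. An acriflavine group without TGFb1 belongs to the design and is not analysed here. Acriflavine, a dye of the acridine class, binds to DNA and RNA, and valproate inhibits histone deacetylases.

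TGFb ligands are secreted in a latent form and, once activated, bind the type II receptor TGFBR2, which then phosphorylates the type I receptor TGFBR1. TGFBR1 phosphorylates SMAD2 and SMAD3, which join SMAD4 and enter the nucleus to regulate target genes. The co-receptors betaglycan (TGFBR3) and endoglin (ENG) present ligand to the receptors, and in pancreatic carcinoma cells the pathway is known for arrest of growth and for the shift from epithelial to mesenchymal traits.

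Values are log2 intensities, changes are differences of group means on that scale with the standard error (SE) of the limma fit, and a gene is said to have risen or fallen where its adjusted p was below 0.05 over 10877 tested genes. A level of one probe set cannot be set against that of another. The array medians lay between 7.16 and 7.21. The SD over genes of an array's distance from its group mean was largest in TGFb1 replicate 4 (0.375), TGFb1 replicate 2 (0.256) and control replicate 4 (0.250), and the other 11 arrays had values of 0.0665 to 0.160. The inhibitor groups have no replicate 4, so calls that depended on them are given with and without both replicates 4. The labels call the replicates biological without naming separate cultures, and the p-values measure the spread between these samples. By their mean over all arrays, all 6 markers of the carcinoma line (KRT7, KRT8, KRT18, KRT19, EPCAM and VIM) lay above the brightness limit of 6.89. Of the 9 endothelial markers 7 lay below it, PECAM1, CDH5, VWF and KDR among them, and ESAM and TIE1 lay above it. So did 3 of 7 leukocyte markers (CD68, LAPTM5 and TYROBP) and 4 of 10 fibroblast markers.

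**Figure D1:**
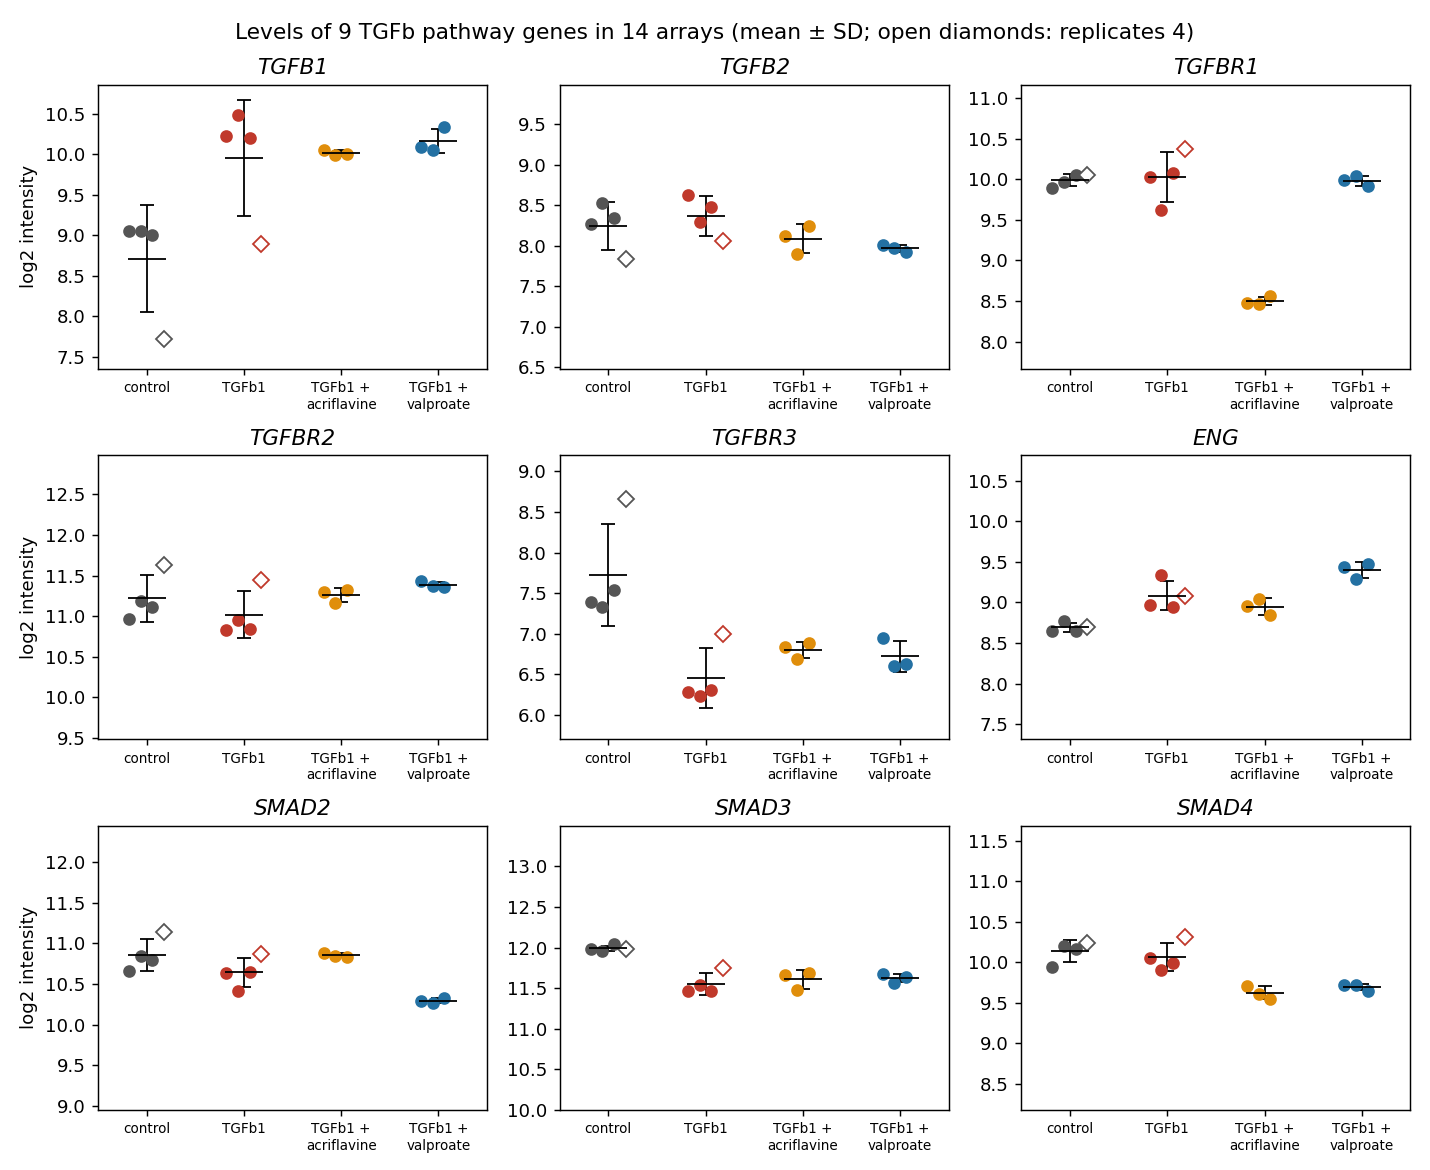
Log2 intensity of the kept probe set of each of the 9 genes (y axis, the same span in every panel) in the 4 groups (x axis). Points are arrays, open diamonds are the replicates 4, and bars are the mean ± SD. TGFB1 lies lower and TGFBR3 higher in both replicates 4 than in the other arrays of their groups, and TGFBR1 lies between 8.46 and 8.56 in the acriflavine arrays against 9.62 to 10.37 in the TGFb1 arrays.

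The comparison of TGFb1 with control shows how the pathway's own components responded to its ligand. The cells' own TGFB1 transcript and ENG rose, and TGFBR3 and SMAD3 fell. The other 5 genes, TGFB2, TGFBR1, TGFBR2, SMAD2 and SMAD4, did not pass. The 4 of 9 that passed stand beside 18.4% of all tested genes (8.39% rose and 9.97% fell), and the median change was -0.07 over the 9 genes and 0.00158 over all genes tested.

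TGFB1 encodes the ligand that was also added as protein. It read 9.06, 9.06, 9.01 and 7.73 in control replicates 1 to 4 and 10.22, 10.48, 10.20 and 8.90 in TGFb1 replicates 1 to 4. Both replicates 4 were the lowest of their groups, and TGFb1 replicate 4 lay below control replicates 1 to 3, so the groups overlapped. The group means were 8.71 ± 0.658 (SD, n = 4) in control and 9.95 ± 0.715 (SD, n = 4) with TGFb1, for a change of 1.24 ± 0.330 (SE, adjusted p = 0.0186), or 2.36-fold higher. The difference was 1.26 within replicates 1 to 3 and 1.17 within replicate 4. Without the replicates 4 the change was 1.26 ± 0.0892 (adjusted p = 3.28e-07). A block for the replicate number gave 1.24 ± 0.0845 (adjusted p = 8.0e-07). The call was lost without TGFb1 replicate 2 (1.06, adjusted p = 0.0573) and in a fit of these 2 groups alone (adjusted p = 0.0903). TGFB1 had no other probe set.

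TGFB2, the second ligand, read 8.27, 8.53, 8.34 and 7.83 in the control arrays and 8.63, 8.30, 8.48 and 8.06 in the TGFb1 arrays. The groups overlapped and again replicate 4 was the lowest of each. Its change of 0.12 ± 0.146 did not pass (adjusted p = 0.61, 95% interval -0.19 to 0.44). The second TGFB2 probe set, 11736553_a_at, had means between 5.96 and 6.04 in the 4 groups, below the brightness limit, and was not tested.

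TGFBR3, which encodes betaglycan, read 7.39, 7.32, 7.54 and 8.66 in the control arrays and 6.27, 6.23, 6.30 and 7.001 in the TGFb1 arrays. The replicates 4 were the highest of their groups, and every TGFb1 array lay below every control array. The group means were 7.73 ± 0.628 (SD, n = 4) in control and 6.45 ± 0.367 (SD, n = 4) with TGFb1, which gives a change of -1.27 ± 0.254 (adjusted p = 0.00313), or 2.42-fold lower. It was -1.15 within replicates 1 to 3 and -1.66 within replicate 4. The kept probe set averaged 6.95 over all arrays and was above the limit of 6.89 through the control arrays, since the means of the other 3 groups lay between 6.45 and 6.80. The call was also made with no genes left out for brightness (adjusted p = 0.00348). The other 2 probe sets of TGFBR3 lay below the limit and were not tested, with differences of -0.54 and -0.24.

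ENG, which encodes endoglin, read 8.65, 8.77, 8.65 and 8.70 in the control arrays and 8.96, 9.34, 8.94 and 9.08 in the TGFb1 arrays. The groups did not overlap, and replicate 4 lay within the range of the others. Control arrays averaged 8.69 ± 0.0574 (SD, n = 4) and TGFb1 arrays 9.08 ± 0.182 (SD, n = 4), for a change of 0.39 ± 0.0912 (adjusted p = 0.00884). All 5 probe sets of ENG rose, by 0.39 to 0.77, when probe sets were tested separately, where 15.9% of all probe sets passed (7.34% rose and 8.56% fell). In a fit of these 2 groups alone the kept probe set missed the threshold (adjusted p = 0.0515). ENG is best known from endothelial cells, and of 9 endothelial markers, whose summed log2 level lay between 52.4 and 54.5 in control and between 53.5 and 55.8 in TGFb1 arrays, only ESAM and TIE1 were bright enough to test. ESAM, a junction adhesion protein, rose by 1.73 ± 0.258 (adjusted p = 0.000332) and TIE1 did not pass, while PECAM1 (6.14 and 6.18) and CDH5 (5.35 and 5.30) stayed below the limit in both groups.

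SMAD3, a receptor-activated SMAD that binds DNA, read 11.99, 11.96, 12.04 and 11.98 in the control arrays. It read 11.46, 11.53, 11.46 and 11.75 in the TGFb1 arrays, all of them below every control array. The change was -0.44 ± 0.0785 (adjusted p = 0.0014), from 11.99 ± 0.0328 (SD, n = 4) to 11.55 ± 0.136 (SD, n = 4), with -0.51 within replicates 1 to 3 and -0.23 within replicate 4. Of its 5 probe sets 2 fell (-0.44 and -0.43) and 3 did not pass (-0.32, -0.25 and -0.23). With both replicates 4 left out, where 26.1% of all probe sets passed (11.5% rose and 14.6% fell), 3 of the 5 fell.

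SMAD4, the common partner of the activated SMADs, was well above the brightness limit in every control array, at 9.94, 10.21, 10.16 and 10.24, or 10.14 ± 0.135 (SD, n = 4). The TGFb1 arrays read 10.05, 9.91, 9.98 and 10.31, and the groups overlapped. The change of -0.07 ± 0.0935 did not pass (adjusted p = 0.648, 95% interval -0.27 to 0.13), nor did any of the 7 SMAD4 probe sets, which ranged from -0.19 to 0.12. The probe set 11725363_s_at fell once the replicates 4 were left out (-0.31, adjusted p = 0.0275), and the other 6 did not pass.

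TGFBR1, the type I receptor kinase, read 9.89, 9.97, 10.06 and 10.05 in control and 10.03, 9.62, 10.07 and 10.37 in TGFb1 arrays, with overlapping groups (0.03 ± 0.120, adjusted p = 0.884). TGFBR2, the type II receptor kinase, read 10.97, 11.18, 11.11 and 11.63 in control and 10.83, 10.95, 10.84 and 11.44 in TGFb1 arrays. SMAD2, the other receptor-activated SMAD, read 10.66, 10.85, 10.79 and 11.14 in control and 10.64, 10.42, 10.65 and 10.87 in TGFb1 arrays. For both of these genes the groups overlapped and replicate 4 was the highest of each group. TGFBR2 differed by -0.21 ± 0.148 (adjusted p = 0.375) and SMAD2 by -0.22 ± 0.106 (adjusted p = 0.181). A replicate block, with which 28.9% of all tested genes passed (13.2% rose and 15.8% fell), made both pass as falls, TGFBR2 with adjusted p = 0.0467 and SMAD2 with adjusted p = 0.0422. Without the replicates 4, where 29.0% of all tested genes passed (12.7% rose and 16.3% fell), TGFBR2 fell by 0.21 (adjusted p = 0.048) and SMAD2 missed the threshold (adjusted p = 0.0697). Of the 7 SMAD2 probe sets 1 fell with all arrays and 2 fell without the replicates 4. The second TGFBR2 probe set, 11750840_s_at, passed neither with all arrays (-0.03) nor without the replicates 4 (-0.04, adjusted p = 0.746).

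Replicate 4 differed from the mean of replicates 1 to 3 in the same direction in both groups for 8 of the 9 genes. In control and TGFb1 arrays, in that order, the difference was -1.32 and -1.41 for TGFB1, -0.54 and -0.41 for TGFB2, 1.24 and 0.73 for TGFBR3, and 0.55 and 0.57 for TGFBR2. It was 0.01 and 0.0001 for ENG. What set the replicates 4 apart was not tested.

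Promoters are shown for TGFB1, TGFBR3 and ENG, which changed with TGFb1 and have 1 listed start each, whereas SMAD3, the remaining gene that changed, has 5. The sequences are from RefSeq on GRCh38.p14, which matched 9 of 9 genes, and give the 250 bases before the start, read on the minus strand for all 3. Capitals mark matches to the GC box GGGCGG on either strand. TGFB1 is at chr19:41353923-41354172, TGFBR3 at chr1:91886152-91886401 and ENG at chr9:127854659-127854908.
TGFB1: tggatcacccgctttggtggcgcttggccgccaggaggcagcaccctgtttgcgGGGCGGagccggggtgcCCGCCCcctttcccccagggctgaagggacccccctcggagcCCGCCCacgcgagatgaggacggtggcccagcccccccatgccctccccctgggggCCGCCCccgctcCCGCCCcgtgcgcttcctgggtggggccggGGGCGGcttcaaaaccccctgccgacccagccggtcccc
TGFBR3: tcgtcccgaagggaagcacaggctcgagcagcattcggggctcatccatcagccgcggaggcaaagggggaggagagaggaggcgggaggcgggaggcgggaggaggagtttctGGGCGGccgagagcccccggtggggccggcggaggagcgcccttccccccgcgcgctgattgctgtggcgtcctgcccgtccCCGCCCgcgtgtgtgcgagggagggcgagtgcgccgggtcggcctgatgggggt
ENG: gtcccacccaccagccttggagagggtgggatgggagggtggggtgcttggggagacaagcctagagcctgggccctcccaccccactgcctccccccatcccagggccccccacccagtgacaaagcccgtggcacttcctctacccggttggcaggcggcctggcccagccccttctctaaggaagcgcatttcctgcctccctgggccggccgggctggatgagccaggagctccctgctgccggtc
The TGFB1 window held 6 such matches, the TGFBR3 window 2 and the ENG window 0. None of the 3 windows held CAGAC, a short motif bound by SMAD3 and SMAD4, or TGANTCA, the AP-1 site, on either strand, with N any base. No match overlapped another. Of 35116 promoters of the same length, 42.6% held GGGCGG, 38% held CAGAC and 6.57% held TGANTCA. These are matches of letters in a fixed window, and binding was not measured.

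The acriflavine group was set against TGFb1 alone to show what the compound changed in cells that also received the ligand. This comparison and the next share the TGFb1 arrays with the one above. TGFBR1, the type I receptor, and SMAD4 fell. The other 7 genes did not pass. The 2 of 9 that passed stand beside 43.6% of all tested genes (24.5% rose and 19.1% fell), and the median change was 0.06 over the 9 genes and 0.03 over all genes tested.

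TGFBR1 read 8.48, 8.46 and 8.56 in the acriflavine arrays, far below the 9.62 to 10.37 of the TGFb1 arrays and the 9.89 to 10.06 of the control arrays. The group means were 10.02 ± 0.307 (SD, n = 4) with TGFb1 alone and 8.50 ± 0.0547 (SD, n = 3) with acriflavine, which gives a change of -1.53 ± 0.130 (adjusted p = 9.43e-07), or 2.88-fold lower. Without the replicates 4 the change was -1.41 ± 0.103 (adjusted p = 1.34e-07). Against control it was -1.49 ± 0.130 (adjusted p = 1.25e-06). The other 2 probe sets of TGFBR1 had group means between 4.12 and 5.28, below the brightness limit, and were not tested, with differences from TGFb1 alone of -0.54 and -0.42.

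SMAD4 read 9.71, 9.61 and 9.55 in the acriflavine arrays, below every TGFb1 array and every control array. Its mean of 9.62 ± 0.0791 (SD, n = 3) was still above the brightness limit of 6.89. The change from TGFb1 alone was -0.44 ± 0.101 (adjusted p = 0.00305), and -0.36 ± 0.0797 (adjusted p = 0.00175) without the replicates 4. All 7 SMAD4 probe sets fell, by changes between -0.93 and -0.37, where 40.5% of all probe sets passed when tested separately (21.1% rose and 19.4% fell).

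For SMAD2 the result depended on the probe set. The kept one read 10.89, 10.85 and 10.84 in the acriflavine arrays, within the range of the control arrays, and its difference from TGFb1 alone of 0.21 ± 0.114 did not pass (adjusted p = 0.148). Of the 7 probe sets, 3 fell and 4 did not pass. The probe set 11734015_a_at fell by the most, from 8.65, 8.10, 8.70 and 8.54 in the TGFb1 arrays to 7.23, 6.94 and 7.37, a change of -1.31 ± 0.146 (adjusted p = 1.1e-05). The groups did not overlap. The probe set 11729655_a_at changed by -1.22 ± 0.170 (adjusted p = 7.57e-05) and 11729653_a_at by -0.83 ± 0.233 (adjusted p = 0.0112). The 4 that did not pass lay between 0.0012 and 0.21. On every array the difference between the extreme probe sets of SMAD2, 11734014_a_at and 11734015_a_at, was larger with acriflavine than with TGFb1 alone, and their changes lay 1.53 apart. The mean of the 7 probe sets fell by 0.43 (adjusted p = 0.0112), the opposite sign to the kept probe set. Against control, where 44.8% of all probe sets passed when tested separately (22.8% rose and 22.0% fell), 4 of the 7 fell, and 11734015_a_at changed by -1.73 ± 0.146 (adjusted p = 1.12e-06). What the probe sets of SMAD2 detect apart from each other was not tested.

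SMAD3 also differed between its probe sets. The kept one read 11.66, 11.47 and 11.69 in the acriflavine arrays and overlapped the TGFb1 arrays (0.06 ± 0.0848, adjusted p = 0.63), and it remained below every control array (-0.38 ± 0.0848 against control, adjusted p = 0.00207). Of the 5 probe sets, 3 rose against TGFb1 alone, by 0.34, 0.46 and 0.66, and 2 did not pass. The probe set with the largest rise, 11726549_a_at, read 9.85, 9.76 and 9.64 with acriflavine against 9.17, 9.48, 9.08 and 8.64 with TGFb1 alone and 9.40, 9.50, 9.46 and 8.996 in control. The acriflavine arrays were the highest of all 3 groups there.

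The ligands and the remaining receptors did not pass with all arrays. TGFB1 read 10.05, 9.99 and 10.00 in the acriflavine arrays, TGFB2 read 8.12, 7.90 and 8.24, and TGFBR2 read 11.30, 11.16 and 11.32. TGFBR3 read 6.84, 6.69 and 6.88, and ENG read 8.95, 9.05 and 8.85. All 5 genes overlapped the TGFb1 arrays. The changes were 0.06 for TGFB1, -0.28 for TGFB2, 0.24 for TGFBR2, 0.35 for TGFBR3 and -0.13 for ENG. Of the 5 ENG probe sets 1 fell with all arrays and 0 without the replicates 4. Without the replicates 4, where 57.8% of all tested genes passed (32.5% rose and 25.3% fell), 3 members rose and 4 fell. TGFBR2 (0.39, adjusted p = 0.000601), TGFBR3 (0.53, adjusted p = 0.000346) and SMAD2 (0.29, adjusted p = 0.00578) then rose in their kept probe sets. TGFB1 (-0.29, adjusted p = 0.0136) and TGFB2 (-0.38, adjusted p = 0.00697) then fell beside TGFBR1 and SMAD4. In that fit the second TGFBR2 probe set, 11750840_s_at, did not pass (0.04, adjusted p = 0.694). Of the 7 SMAD2 probe sets 1 then rose and 3 fell, 11734015_a_at by the most (-1.30). For this count and that of the ENG probe sets, the share of all probe sets in this fit is not given. With all arrays TGFBR3 averaged 6.45 with TGFb1 alone and 6.80 with acriflavine, both below the brightness limit of 6.89. Its other 2 probe sets were not tested and were not higher with acriflavine. TGFb1 replicate 4 alone decided the calls of TGFB2, TGFBR2 and SMAD2, which passed once it was left out.

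**Figure D2:**
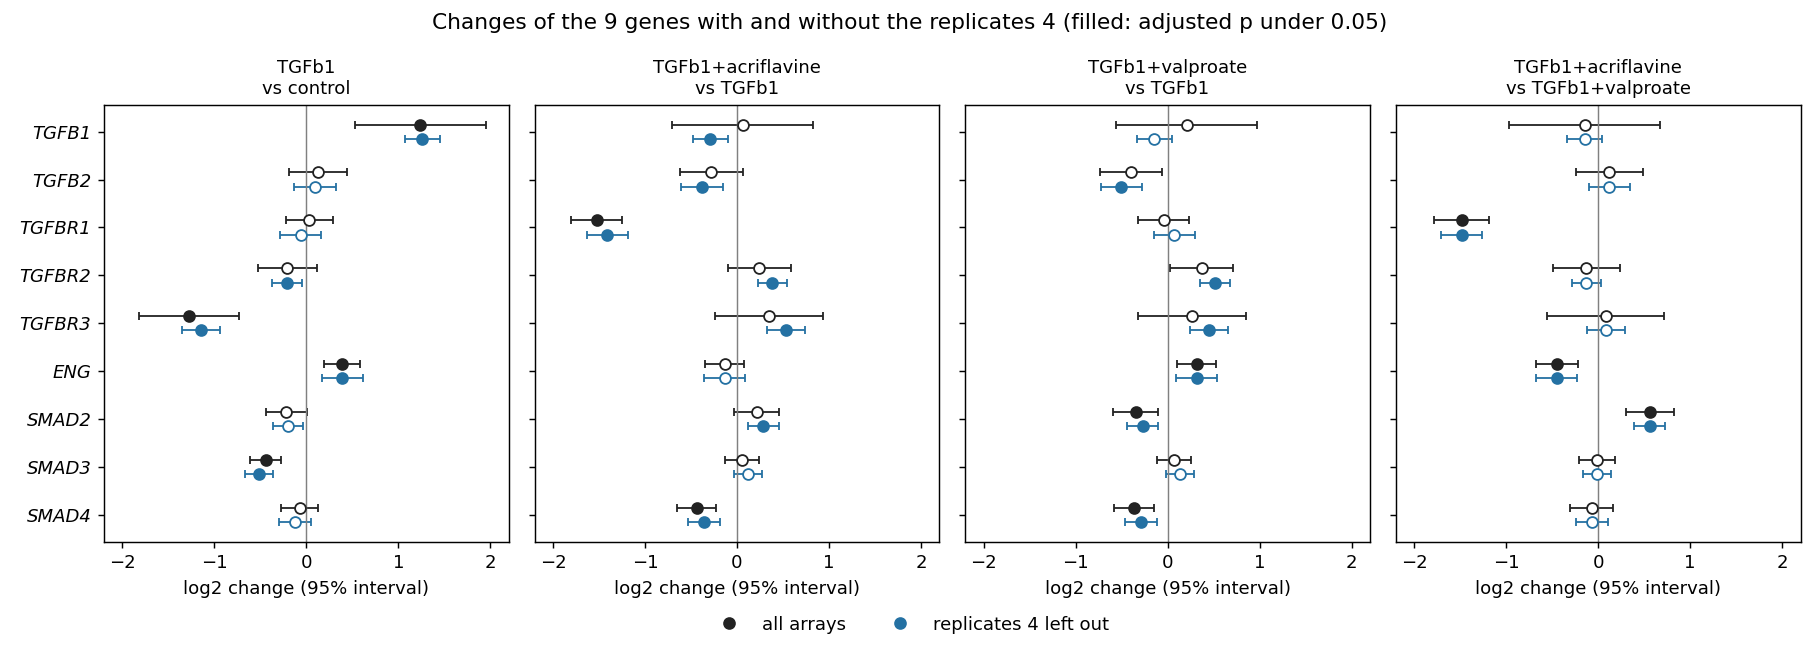
Log2 change (x axis) with its 95% interval for each of the 9 genes (y axis) in 4 comparisons, with all arrays (black) and with both replicates 4 left out (blue); filled points passed an adjusted p of 0.05. The intervals of TGFB1 and TGFBR3 narrow without the replicates 4, and TGFBR1 with acriflavine lies near -1.5 in both fits.

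The valproate group was set against TGFb1 alone in the same way. ENG rose further, and SMAD2 and SMAD4 fell. The other 6 genes did not pass. The 3 of 9 that passed stand beside 31.3% of all tested genes (15.1% rose and 16.2% fell), and the median change was 0.07 over the 9 genes and -0.0063 over all genes tested.

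ENG read 9.43, 9.29 and 9.48 in the valproate arrays, where TGFb1 replicate 2 at 9.34 was the only TGFb1 array above the lowest of them. The change was 0.32 ± 0.0985 (adjusted p = 0.0252), and 0.71 ± 0.0985 against control (adjusted p = 8.47e-05). Only the kept probe set of the 5 rose against TGFb1 alone, where 28.1% of all probe sets passed (12.5% rose and 15.6% fell), with the others between -0.02 and 0.26. In the fit that leaves out the replicates 4, where 44.4% of all probe sets passed (20.5% rose and 23.9% fell), 3 of the 5 rose. Against control, where 34.4% of all probe sets passed (14.7% rose and 19.7% fell), all 5 rose, by 0.55 to 0.76. ESAM rose as well against TGFb1 alone, by 1.01 ± 0.278 (adjusted p = 0.013), and the 9 endothelial markers summed to between 55.6 and 56.8 log2 units against 53.5 to 55.8 in the TGFb1 arrays. ESAM carried nearly all of that difference, since the other markers went both ways. PECAM1 (-0.15), CDH5 (-0.19), VWF (-0.07) and TIE1 (-0.05) were lower with valproate. KDR (0.23), EMCN (0.12), TEK (0.07) and CLDN5 (0.07) were higher. Apart from ESAM only TIE1 was tested, and it did not pass. The part of these markers in the ENG result was not tested.

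SMAD2 read 10.29, 10.26 and 10.33 in the valproate arrays, below every array of the other 3 groups. The change from TGFb1 alone was -0.35 ± 0.114 (adjusted p = 0.0328) and that from control -0.56 ± 0.114 (adjusted p = 0.00158). Of the 7 probe sets, 4 fell against TGFb1 alone and 3 did not pass, all between -0.60 and -0.22. Against control all 7 fell, by changes from -1.004 to -0.55.

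SMAD4 read 9.71, 9.72 and 9.65 in the valproate arrays, again below every TGFb1 and control array. Its mean was 9.69 ± 0.0384 (SD, n = 3) and the change from TGFb1 alone was -0.37 ± 0.101 (adjusted p = 0.0126). Of the 7 probe sets, 5 fell and 2 did not pass (-0.16 and -0.14). In a fit of these 2 groups alone none of the 3 calls held (adjusted p = 0.105 for ENG, 0.0702 for SMAD2 and 0.0526 for SMAD4). ENG lost its call without TGFb1 replicate 1 or 3 or valproate replicate 1 or 3 (adjusted p = 0.0684 to 0.102). SMAD2 lost it without TGFb1 replicate 1, 3 or 4 or any valproate array (adjusted p = 0.0561 to 0.0985), and SMAD4 without valproate replicate 3 (adjusted p = 0.0519). With both replicates 4 left out, 47.9% of all tested genes passed (24.2% rose and 23.7% fell). In that fit ENG changed by 0.32 (adjusted p = 0.0224), SMAD2 by -0.27 (adjusted p = 0.0105) and SMAD4 by -0.29 (adjusted p = 0.0094).

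TGFB2 read 8.005, 7.97 and 7.92 in the valproate arrays, just below the lowest TGFb1 array at 8.06, and its change of -0.40 ± 0.158 did not pass (adjusted p = 0.0707). TGFBR2 read 11.43, 11.37 and 11.36, above all TGFb1 arrays but replicate 4, and its change of 0.37 ± 0.160 did not pass either (adjusted p = 0.0968). Without the replicates 4, where 47.9% of all tested genes passed (24.2% rose and 23.7% fell), TGFB2 fell by 0.50 (adjusted p = 0.00148), and TGFBR2 rose by 0.51 (adjusted p = 9.26e-05). TGFBR3 read 6.94, 6.60 and 6.62 and rose by 0.45 (adjusted p = 0.00168) without the replicates 4, against 0.27 (adjusted p = 0.515) with them. In that fit 3 members rose and 3 fell. The second TGFBR2 probe set, 11750840_s_at, did not pass in it (0.12, adjusted p = 0.292). With all arrays TGFBR3 averaged 6.45 with TGFb1 alone and 6.72 with valproate, both below the brightness limit of 6.89. TGFb1 replicate 4 alone decided the calls of TGFB2 and TGFBR2.

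TGFB1 read 10.09, 10.05 and 10.33 in the valproate arrays, TGFBR1 read 9.99, 10.04 and 9.92, and SMAD3 read 11.67, 11.56 and 11.63. None of these passed against TGFb1 alone, with changes of 0.21 for TGFB1 (95% interval -0.56 to 0.98), -0.04 for TGFBR1 (-0.32 to 0.24) and 0.07 for SMAD3 (-0.11 to 0.25).

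**Figure D3:**
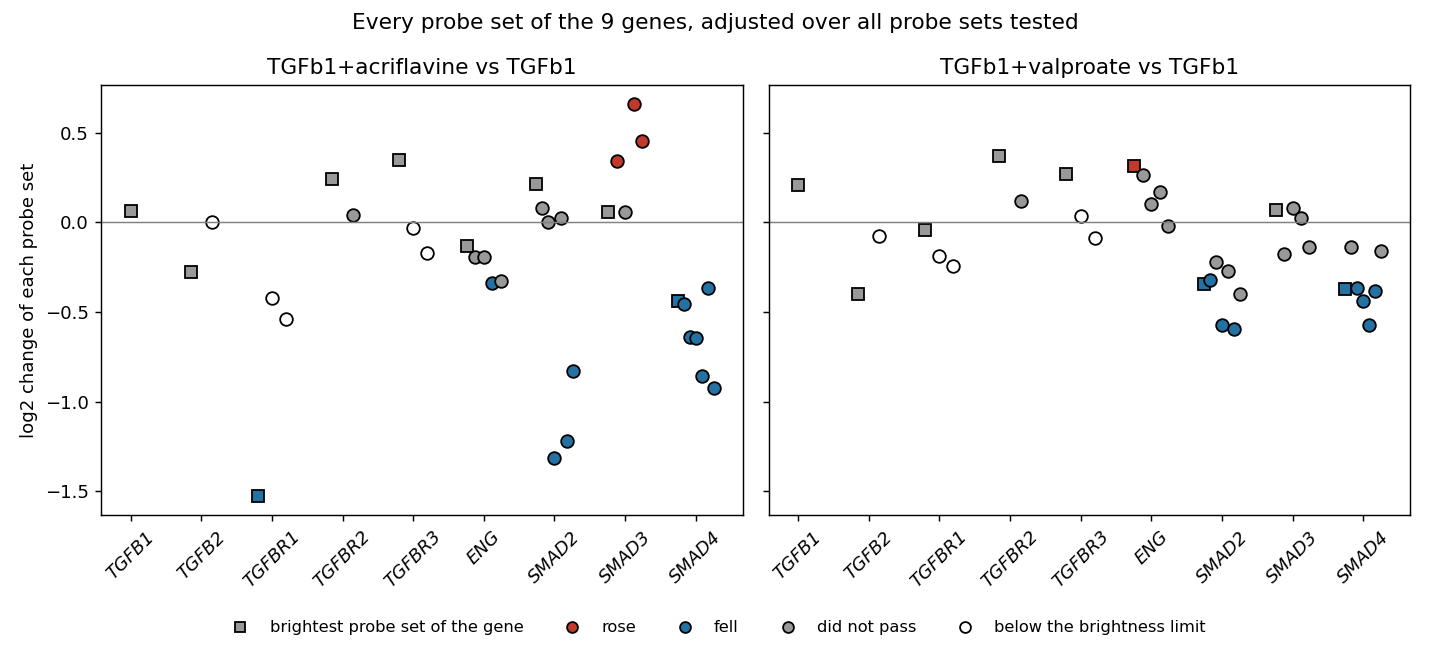
Log2 change (y axis) of every probe set of the 9 genes (x axis) with acriflavine and with valproate against TGFb1 alone, each probe set tested separately. Squares are the kept probe sets, filled colours show the call, and open circles lay below the brightness limit. With acriflavine the SMAD2 probe sets spread from -1.31 to 0.21, and all 7 SMAD4 probe sets lie below 0.

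The inhibitors were also set against each other and against control. Between acriflavine and valproate 3 of 9 genes passed, beside 51.5% of all tested genes (28.3% rose and 23.3% fell). TGFBR1 was lower with acriflavine by 1.48 on the log2 scale (-1.48 ± 0.138, adjusted p = 1.31e-06), ENG differed by -0.45 ± 0.105 (adjusted p = 0.00271), and SMAD2 was higher with acriflavine (0.56 ± 0.122, adjusted p = 0.00162). None of these overlapped between the 2 groups. For SMAD2 this direction belongs to the kept probe set: of the 7, 2 were higher, 2 were lower and 3 did not pass, where 47.9% of all probe sets passed (26.0% were higher and 21.9% lower), and the mean of the 7 differed by -0.0459. SMAD4 did not differ past the threshold (-0.07 ± 0.108, 95% interval -0.30 to 0.16) in the kept probe set, and 4 of its 7 probe sets were lower with acriflavine.

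Against control, 2 genes rose and 4 fell with each inhibitor. This stands beside 47.7% of all tested genes for acriflavine (26.1% rose and 21.6% fell) and 36.7% for valproate (16.9% rose and 19.8% fell). The counts without the replicates 4 were 2 that rose and 5 that fell with acriflavine, beside 59.0% of all tested genes (32.6% rose and 26.4% fell), and 3 that rose and 5 that fell with valproate, beside 50.9% (23.6% rose and 27.3% fell). TGFB2 then fell with both (-0.29, adjusted p = 0.0298, and -0.41, adjusted p = 0.00519). TGFBR2 rose with valproate (0.30, adjusted p = 0.00429) in its kept probe set, and 11750840_s_at did not pass (0.08, adjusted p = 0.503). With all arrays TGFB1 was higher than control in both, by 1.30 ± 0.356 with acriflavine (adjusted p = 0.00823) and 1.45 ± 0.356 with valproate (adjusted p = 0.00573). No array overlapped. Without the replicates 4 the TGFB1 changes were 0.97 (adjusted p = 1.13e-06) and 1.12 (adjusted p = 3.5e-07). TGFBR3 was lower in both, at -0.93 ± 0.274 (adjusted p = 0.013) and -1.01 ± 0.274 (adjusted p = 0.0106). Its means with acriflavine (6.80) and valproate (6.72) lay below the brightness limit of 6.89, and only that of control (7.73) lay above it. The control arrays thus brought TGFBR3 into the test, so these 2 calls give no separate support to its fall. With control replicate 4 left out, the TGFBR3 changes were -0.62 (adjusted p = 0.012) and -0.70 (adjusted p = 0.00779). The kept probe set of SMAD3 stood at -0.38 with acriflavine and -0.37 with valproate, and that of SMAD4 at -0.51 and -0.44. The SMAD3 probe sets differed among themselves with acriflavine, where 2 of 5 fell and the changes reached from -0.38 to 0.41, and with valproate 3 of 5 fell, with changes from -0.49 to -0.22. The probe set at 0.41, 11726549_a_at, did not pass with all arrays and rose without the replicates 4 (0.30, adjusted p = 0.0354), where 55.8% of all probe sets passed (28.5% rose and 27.3% fell). With valproate all 5 then fell. The share for that fit is given only over genes (50.9%, with 27.3% falling) and not over probe sets. ENG passed with acriflavine at 0.26 ± 0.0985 (adjusted p = 0.0455), but no longer with any of control replicates 1 to 4 or acriflavine replicates 1 and 2 left out (adjusted p = 0.0508 to 0.171) or with no genes left out for brightness (adjusted p = 0.061).

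In the kept probe sets, TGFBR1 spanned the widest range of means over the 4 groups (1.53), then TGFB1 (1.45) and TGFBR3 (1.27), and TGFBR2 the narrowest (0.37). In order of level, TGFB1 ran from valproate over acriflavine and TGFb1 to control, and only the step down to control passed. This order rests on TGFb1 replicate 4: when the replicates 4 were left out, TGFb1 alone was the highest group, and acriflavine lay below it (-0.29, adjusted p = 0.0136). TGFBR1 ran from TGFb1 over control and valproate to acriflavine, and only the last step passed. TGFBR3 ran from control over acriflavine and valproate to TGFb1, and only the first step passed, with only the control mean above the brightness limit. TGFB2 ran from TGFb1 over control and acriflavine to valproate, and TGFBR2 from valproate over acriflavine and control to TGFb1, and no step between neighbours passed for either. ENG ran from valproate over TGFb1 and acriflavine to control, and its first and last steps passed. SMAD2 ran from control over acriflavine and TGFb1 to valproate, and only the last step passed. SMAD3 ran from control over valproate and acriflavine to TGFb1, and only the first step passed. SMAD4 ran from control over TGFb1 and valproate to acriflavine, with only the step between TGFb1 and valproate past the threshold. Leaving out the replicates 4 also turned the order for TGFBR1 (valproate, control, TGFb1, acriflavine) and SMAD2 (acriflavine, control, TGFb1, valproate). Only the last step of each passed. For SMAD2 this order belongs to the kept probe set. Of its 7 probe sets, 1 then rose and 3 fell with acriflavine against TGFb1 alone. There 57.8% of all tested genes passed (32.5% rose and 25.3% fell), and the share of all probe sets is not given. In the orders that did not turn, 3 more steps then passed. These were control to acriflavine for TGFB2, control to TGFb1 for TGFBR2 and valproate to TGFb1 for TGFBR3. The TGFBR3 step lay between groups whose means were below the brightness limit. The second TGFBR2 probe set did not pass for its step.

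The tested genes whose levels over the 14 arrays were most like each of these 3 wide-ranging genes were named by the root mean square distance after centring each gene on its mean. For TGFBR1 they were SLC36A4 (0.117 log2 units), CHORDC1 (0.149) and CDK6 (0.166), with group means of 11.06, 11.08, 9.63 and 11.01 for CDK6, a cell cycle kinase, in control, TGFb1, acriflavine and valproate. For TGFB1 they were JUNB (0.232), an AP-1 transcription factor, RHOB (0.262), a small GTPase, and ITGA5 (0.303), the fibronectin receptor subunit alpha 5. For TGFBR3 they were GBP3 (0.212), a guanylate-binding protein, SLCO4A1 (0.254), an organic anion transporter, and ERMP1 (0.261). The distances take in the replicates 4. In control and TGFb1 these differed from replicates 1 to 3 by -1.32 and -1.41 for TGFB1. For TGFBR3 the differences were 1.24 and 0.73. Likeness to these 2 genes thus covers that shift as well as the treatments.

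The genes around the receptors and SMADs were described by list, and each count is to be read against the share of all tested genes. The lists were chosen with earlier results of these data known, so a count can partly reflect that choice. That share was 8.39% rising and 9.97% falling with TGFb1, 24.5% and 19.1% with acriflavine against TGFb1 alone, and 15.1% and 16.2% with valproate against TGFb1 alone. When the replicates 4 were left out it was 12.7% and 16.3%, 32.5% and 25.3%, and 24.2% and 23.7%, in the same order. Of 21 genes of latent TGFb storage and activation, 15 were tested, and 10 rose and 1 fell with TGFb1 (median 0.66, against 0.00158 over all tested genes). LTBP2, a latent TGFb binding protein, rose by 1.67, ITGB3, an integrin subunit, by 1.33, and MMP2, a matrix protease, by 1.25. With acriflavine against TGFb1 alone 9 fell and 3 rose (median -0.40, against 0.03). ITGB3 fell by 1.74 and ITGAV, its partner in the integrin that activates latent TGFb, by 1.36, while NRROS, an anchor of latent TGFb, rose by 1.46. With valproate 5 rose and 2 fell (median 0.19, against -0.0063), LTBP1 by 1.02 and MMP2 by 0.52, with LTBP3 at -0.54. With TGFb1 11 rose and 1 fell once the replicates 4 were left out, with acriflavine 3 rose and 10 fell, and with valproate 7 rose and 4 fell.

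Of the other receptors of the superfamily 5 of 10 were tested. ACVR1, a type I receptor for BMPs and activins, rose with TGFb1 (0.44 ± 0.0945, adjusted p = 0.0053) and fell with acriflavine (-0.44 ± 0.102, adjusted p = 0.00341). BMPR2, the type II receptor for BMPs, fell with acriflavine (-1.51 ± 0.271, adjusted p = 0.000514) and did not pass with TGFb1 (0.63, adjusted p = 0.102). ACVR1B, a type I activin receptor, did not pass in either of these comparisons or with valproate (0.11, 0.03 and -0.07), and ACVRL1, the type I receptor that pairs with ENG in endothelium, lay below the brightness limit. None of the 5 passed with valproate against TGFb1 alone by limma with all arrays, and 1 rose without the replicates 4.

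SMAD7, an inhibitory SMAD that TGFb induces, rose with TGFb1 by 1.31 ± 0.110 (adjusted p = 2.13e-06), fell with acriflavine by 0.70 ± 0.119 (adjusted p = 0.000315) and stood at -0.03 with valproate (adjusted p = 0.908). SMAD1, a SMAD of the BMP branch, fell with TGFb1 by 0.36 (adjusted p = 0.0139), and the other 2 of the 4 tested, SMAD5 and SMAD6, did not pass in these 3 comparisons with all arrays. Of the 4, 2 fell with TGFb1 and 1 rose with acriflavine when the replicates 4 were left out.

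Of 23 tested receptor partners, adaptors and turnover genes, 3 rose and 2 fell with TGFb1 (median 0.02), which together is near the 18.4% of all tested genes. VASN, a membrane protein that binds TGFb, rose by 0.95, and SMURF1 and SMURF2, ubiquitin ligases that target the receptors, by 0.77 and 0.68. With acriflavine 6 rose and 7 fell (median -0.09): CD109, a TGFb co-receptor, fell by 1.32, BAMBI, a decoy receptor, rose by 0.98 and NEDD4L, a ubiquitin ligase for activated SMAD2 and SMAD3, by 0.95. With valproate 3 rose and 6 fell (median -0.04), among them DAB2, an endocytic adaptor, at 0.97, CAV1, which encodes caveolin-1, at -0.79 and TGFB1I1 at -0.78. Leaving out the replicates 4, 8 rose and 2 fell with TGFb1, 6 rose and 10 fell with acriflavine, and 7 rose and 10 fell with valproate.

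Of 16 tested nuclear partners and phosphatases of the SMADs, 3 rose and 0 fell with TGFb1 (median 0.03), again near the 18.4% of all tested genes. These were the SMAD corepressors SKIL (0.98) and SKI (0.51) and the importin IPO7 (0.32). With acriflavine 0 rose and 6 fell (median -0.15), led by SKI at -1.92, SKIL at -0.62 and TGIF1 at -0.60. With valproate 0 rose and 6 fell (median -0.24), led by the coactivators CREBBP (-0.81) and EP300 (-0.58) and by E2F4 (-0.41). The 6 of 16 stand beside 43.6% of all tested genes with acriflavine and 31.3% with valproate. The TGFb1 counts were the same without the replicates 4, where 2 rose and 8 fell with acriflavine and 0 rose and 8 fell with valproate.

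Of 14 tested direct targets of SMAD3, 13 rose and 0 fell with TGFb1 (median 1.37). Because this list was chosen with earlier results of these data known, its counts are a description and not a test. ADAM19, a membrane metalloprotease, rose by 3.91, COL1A1, a chain of type I collagen, by 3.68, SNAI1, a repressor of E-cadherin, by 2.63 and PMEPA1, a membrane protein that restrains SMAD signalling, by 1.89. With acriflavine 10 fell and 1 rose (median -0.66). COL1A1 fell by 3.88, ADAM19 by 2.50, SNAI1 by 1.56 and PMEPA1 by 0.65, whereas SPHK1, a sphingosine kinase, rose by 1.02. With valproate 1 rose and 2 fell (median 0.06), CDKN1A, the cell cycle inhibitor p21, at 1.02, SNAI1 at -0.66 and LTBP2 at -0.33, and PMEPA1 stood at 0.15 (adjusted p = 0.153). The 3 of 14 with valproate stand beside 31.3% of all tested genes. In the fit without the replicates 4, 13 rose and 0 fell with TGFb1, 1 rose and 11 fell with acriflavine, and 3 rose and 4 fell with valproate. Of the 4 tested fibroblast markers 3 rose with TGFb1 (COL1A1, THY1 by 0.95 and COL3A1 by 0.73). With acriflavine COL1A1 and COL3A1 (-2.22) fell and ACTA2, smooth muscle actin, rose from 6.79 to 8.06. With valproate THY1 rose by 1.40 and COL3A1 fell by 0.94. The 10 on the array summed to between 57.9 and 58.4 log2 units in control, 62.4 and 65.7 with TGFb1, 58.2 and 59.3 with acriflavine and 67.6 and 68.3 with valproate arrays. Between TGFb1 and valproate the largest change of the 10 was that of LUM, from 3.51 to 6.14. LUM lay below the brightness limit and was not tested. COL1A1 counts in both lists.

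**Figure D4:**
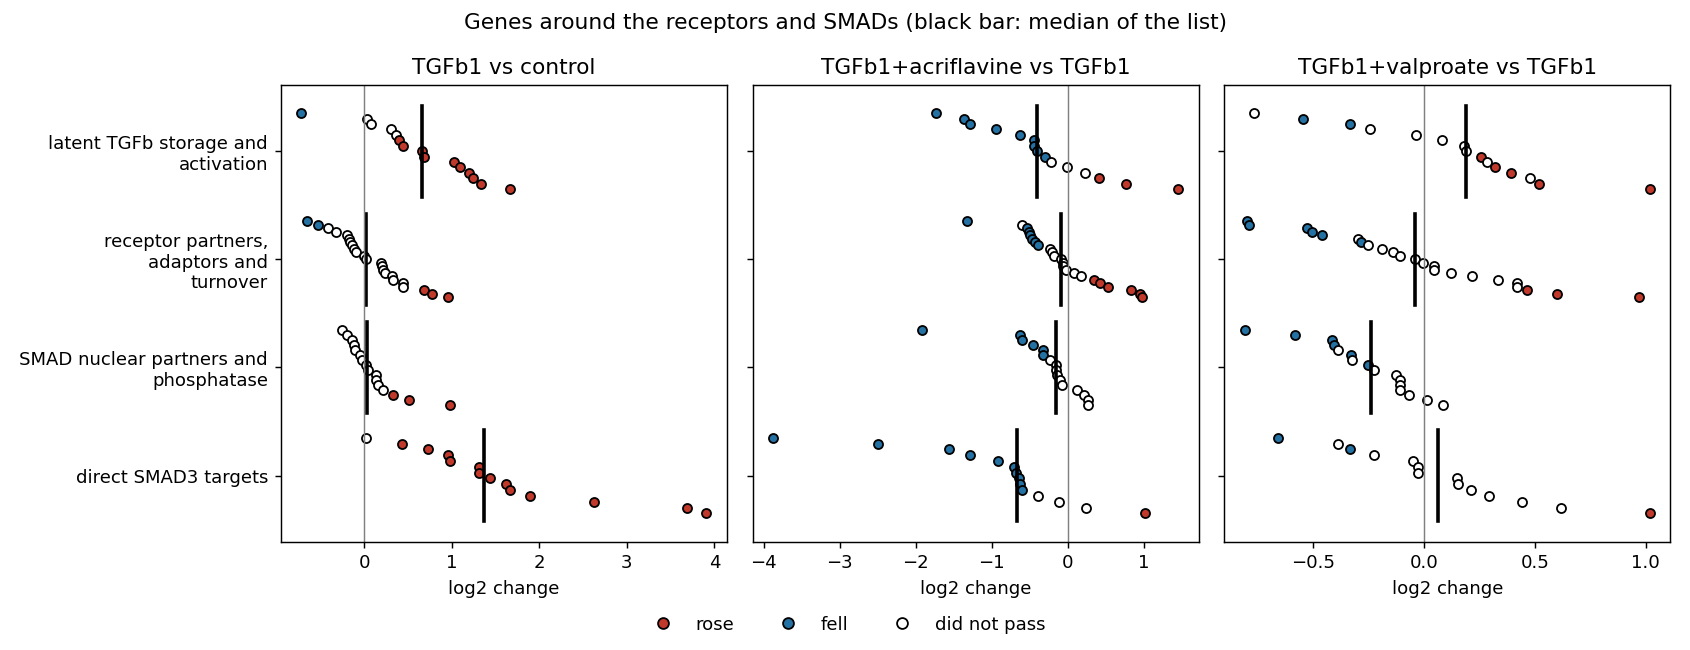
Log2 change (x axis) of each tested gene of 4 lists (y axis) in 3 comparisons, with a black bar at the median of the list. Red points rose, blue points fell and open points did not pass. The direct SMAD3 targets lie to the right with TGFb1 (median 1.37), to the left with acriflavine (median -0.66) and around 0 with valproate (median 0.06). The lists were chosen with earlier results of these data known.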

How the data were processed

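RNA (200 ng per sample) from 14 PANC-1 samples was read on Affymetrix 3' expression arrays. The authors deposited log2 intensities, made by RMA with affy 1.44.0 per the submitters' processing notes. RMA corrects the background, equalises the distributions of arrays and sums the probes of a set, so that differences between arrays shrink. Which arrays were normalised together is not given in the sources used here. Of 49193 probe sets, 44898 named 1 gene, 1825 several and 2470 none, by the platform annotation.

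The brightest probe set of each of 18129 genes was kept, the dimmest 40% (7252 genes) were left out, and 10877 genes entered 1 model of group means for all 14 arrays (limma 3.58.1, functions lmFit and eBayes, in R 4.3.3), from which 6 comparisons were taken, each with Benjamini-Hochberg adjustment over genes. The 35 member probe sets were also tested among 26938. Named genes were the members, from each list up to 3 with the largest change that passed, and a few fixed genes. The members and lists were chosen with earlier results of these data known. A planned exact permutation test for members below the limit was not needed.

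Replicate numbers were regarded as pairs where deviations from the group means correlated above 0.1 in every replicate. For TGFb1 and control they did (0.387, 0.359, 0.543 and 0.705), and for no other comparison. The replicate block is given beside the reported calls, which come from the model of group means without pairs. The fit was tested on simulated data: for TGFb1 against control, with 10877 genes, it found 58% of genes changed by 0.5 and 97% of those changed by 1, and 6.63% of its calls were false. Precision is limited by the number of arrays. The plots used matplotlib 3.10.9 (Python 3.11.15).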

Additional observations from a re-analysis of the deposited data

Results flagged for a closer look

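In the groups of 4 arrays, 18 sets of values (9 genes in control and TGFb1) were checked for an array far from the others, and 3 stood out, all of them replicate 4. Chance alone marks about 1 in 20 such sets. TGFB1 in control replicate 4 read 7.73, with a gap to the nearest array of 0.963 of the group's range. TGFBR3 in control replicate 4 read 8.66, with a gap of 0.839 of the range, and in TGFb1 replicate 4 it read 7.001, with a gap of 0.914 of the range.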

How the results depend on the processing

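Over all alternatives, 950 of 1074 changes of single genes kept their direction and their side of the threshold. The count of members that passed for acriflavine against TGFb1 alone (2 as reported) was 4 with the mean of all probe sets, and 7 with the replicate block, without both replicates 4, and with a batch term for the replicates 4. For valproate against TGFb1 alone (3 as reported) it was 6 in each of those last 3 fits, and 0 in a fit of the 2 groups alone and at an adjusted p of 0.01. For TGFb1 against control (4 as reported) it was 2 in a fit of the 2 groups alone and 6 with the replicate block. With each array left out in turn the counts ran from 3 to 6 for TGFb1 against control, 2 to 5 for acriflavine and 0 to 4 for valproate against TGFb1 alone, 5 to 6 and 6 to 7 against control, and stayed at 3 between the inhibitors. Without valproate replicate 3 the count for valproate was 0, and without TGFb1 replicate 4 that for acriflavine was 5. The shares over all tested genes moved as well. Without both replicates 4 they were 57.8% for acriflavine and 47.9% for valproate, against 43.6% and 31.3% as reported. For TGFb1 against control the share was 28.9% with the replicate block, against 18.4% as reported. For the other fits counted here the share is not given, so their counts cannot be set against it.

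Of the changes that turned sign, SMAD2 between the inhibitors had passed as reported (0.56). With the mean of all probe sets, SMAD2 turned to -0.43 for acriflavine against TGFb1 alone and to -0.0459 between the inhibitors, SMAD3 to -0.0270 for valproate against TGFb1 alone and to 0.34 between the inhibitors, and TGFBR1 to 0.0424 for valproate against control. That setting gives no value for TGFBR3, which it puts below the limit. With arrays centred on their medians, SMAD2 turned to 0.0225 for acriflavine against control and SMAD3 to 0.0230 between the inhibitors. With quantile normalisation repeated, TGFBR1 turned to 0.0236 for valproate against control. The replicate block and the batch term gave the same turned values: for acriflavine against TGFb1 alone -0.28 for TGFB1, for valproate -0.13 for TGFB1 and 0.0242 for TGFBR1, against control 0.0814 for SMAD2 with acriflavine and 0.0578 for TGFBR1 with valproate. Without both replicates 4 these were -0.29, -0.14, 0.0717, 0.0904 and 0.0103, and TGFBR1 for TGFb1 against control turned to -0.0614. The cause was not tested.

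Leaving out 1 array at a time, signs turned within these ranges. For TGFb1 against control, TGFB2 ran from -0.0106 to 0.23 and TGFBR1 from -0.0816 to 0.17. For acriflavine against TGFb1 alone, TGFB1 ran from -0.29 to 0.24. For valproate against TGFb1 alone, TGFB1 ran from -0.14 to 0.39 and TGFBR1 from -0.18 to 0.0717. Against control, TGFBR2 ran from -0.0492 to 0.17 and SMAD2 from -0.0686 to 0.0904 with acriflavine, and TGFBR1 from -0.0431 to 0.0213 with valproate. Between the inhibitors SMAD3 ran from -0.0568 to 0.0517. With TGFb1 the mean of TGFBR3 lay below the brightness limit.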
